A study of Mus musculus with 3 samples.

Results

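Tprg and Trp63 lie next to each other on mouse chromosome 16, and they were examined here for estrogen receptor α (ERα) binding in the mammary gland. The locus was chosen by the measured scores of its peaks, among the highest in the deposited lists, so its positions, scores and ranks are given as a description and were not tested. Its members are all peaks with a midpoint within 150 kb of an annotated transcription start site (TSS) of either gene or inside either gene body on mm9. These were 11 of the 9607 peaks of replicate 1 and 9 of the 6819 peaks of replicate 2. Peaks of the lists that overlapped by at least 1 bp were joined into shared regions, the interval covered by both peaks, which gave 9 of the 6250 shared regions of the series. Another 3 members were called in only 1 list, so 12 regions are described in all.

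The peaks came from ChIP-seq, in which DNA bound by a protein is recovered with an antibody and sequenced. ERα was recovered from mammary glands of wild type (WT) BALB/c mice whose ovaries were removed at an age of 6 weeks and that received, after 10 days without treatment, 100 ng of 17β-estradiol for 2 h. There were 2 replicates, each pooled from several mice. An input library of the same kind, sequenced without the antibody step, served as the comparison in peak calling. All samples received estradiol, so the lists hold no contrast with vehicle, and no expression was measured in them. The score of a peak is the negative log10 of its p-value multiplied by 10. It rises with read depth as well as enrichment, and the lists give no read counts, so the depth behind a score is unknown from them. Chromatin came from whole glands, so a weak signal in many cells and a strong signal in few cannot be told apart, and the labelled tissue could not be checked against marker genes.

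ERα is a nuclear receptor that, with estradiol bound, attaches as a dimer to the estrogen response element (ERE), an inverted repeat of GGTCA and TGACC with 3 bases between them. It can also reach DNA through other factors, such as AP1, and forkhead factors such as FOXA1 open chromatin for it. Within the epithelium of the mammary gland, ERα is found in a subset of the luminal cells. Trp63 encodes p63, the member of the p53 family that maintains basal cells of stratified and glandular epithelia. The gene makes full-length proteins with a transactivation domain from an upstream start and ΔN proteins without it from an internal start, and the ΔN form marks basal and myoepithelial cells of the mammary gland. Tprg encodes tumor protein p63 regulated, a protein named for its regulation by p63.

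Both genes are on the plus strand in GENCODE models of NCBIM37, the assembly behind mm9. Tprg (ENSMUSG00000048399) spans 25286903 to 25422430 on chromosome 16. Trp63 (ENSMUSG00000022510) spans 25683849 to 25892188, and its internal start at 25802002 lies 118 kb into the gene. The regions are named below by the distance of their midpoint from the Tprg start or from a Trp63 start, with negative distances upstream.

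The sequences below carry the description of the locus and are the plus strand of NCBIM37. Up to 300 bases around the midpoint are shown for the 3 regions with the highest scores. In these stretches, capitals mark an ERE with at most 1 mismatch, a single GGTCA or TGACC arm, or another motif named with the sequence. In the shorter sequences, they mark only the motifs named with them. The Tprg region at -66.0 kb, chr16:25220722-25221021, held the only ERE of the locus without a mismatch, and the capitals CATTCC upstream of it are a TEAD motif on the other strand.

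Tprg -66.0 kb: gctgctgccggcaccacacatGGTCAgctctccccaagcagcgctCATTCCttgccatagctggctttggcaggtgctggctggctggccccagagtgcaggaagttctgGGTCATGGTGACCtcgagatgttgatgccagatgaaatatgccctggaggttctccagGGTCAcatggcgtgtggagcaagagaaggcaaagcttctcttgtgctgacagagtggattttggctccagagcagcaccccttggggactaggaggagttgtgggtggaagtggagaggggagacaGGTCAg

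The Tprg region at -128.2 kb, chr16:25158549-25158848, had the same score and no such ERE near its midpoint. Its capitals are a GGTCA arm, a FOXA1 motif (TGTTTAC) and a TFAP2 motif.

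Tprg -128.2 kb, midpoint: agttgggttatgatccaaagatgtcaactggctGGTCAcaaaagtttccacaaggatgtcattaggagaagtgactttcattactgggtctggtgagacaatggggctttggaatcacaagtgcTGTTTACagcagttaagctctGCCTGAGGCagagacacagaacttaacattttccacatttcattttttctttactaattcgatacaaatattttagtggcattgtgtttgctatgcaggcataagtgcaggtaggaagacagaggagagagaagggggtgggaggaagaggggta

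Farther from the midpoint the same region held an ERE with 1 mismatch (chr16:25158956-25158996) and, on the other side, an AP1 motif (chr16:25158510-25158550), which are the capitals of the next sequences.

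Tprg -128.2 kb, ERE: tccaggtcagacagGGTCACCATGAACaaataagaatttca
Tprg -128.2 kb, AP1: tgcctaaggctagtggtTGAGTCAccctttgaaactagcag

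The Tprg region at -48.1 kb, chr16:25238638-25238937, came next by score, and this stretch held no ERE with at most 1 mismatch and no GGTCA arm. The capitals are motifs of STAT type (TTC and GAA with 3 bases between them).

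Tprg -48.1 kb: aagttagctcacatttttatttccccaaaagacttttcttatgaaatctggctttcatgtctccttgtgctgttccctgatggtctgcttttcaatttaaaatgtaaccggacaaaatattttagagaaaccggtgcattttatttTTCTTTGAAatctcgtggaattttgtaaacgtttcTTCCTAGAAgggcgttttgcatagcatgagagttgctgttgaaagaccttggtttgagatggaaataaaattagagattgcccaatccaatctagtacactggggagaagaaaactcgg

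The remaining sequences are an ERE with 1 mismatch close to Tprg (chr16:25263754-25263794), one in an intron of Trp63 that was called in replicate 1 alone (chr16:25849657-25849697), and the motif-bearing part of the shared region inside Trp63 (chr16:25786712-25786832). The capitals of the last are, in order, a progesterone or glucocorticoid response element, a STAT motif, an AP1 motif and a GATA motif.

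Tprg -23.0 kb: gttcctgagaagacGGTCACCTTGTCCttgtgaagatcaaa
Trp63 internal start +47.8 kb: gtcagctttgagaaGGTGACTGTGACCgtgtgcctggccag
Trp63 +103.0 kb: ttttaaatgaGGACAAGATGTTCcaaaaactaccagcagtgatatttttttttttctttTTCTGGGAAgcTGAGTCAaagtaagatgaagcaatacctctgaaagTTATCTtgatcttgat

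ERα binding was concentrated upstream of Tprg. Of the 9 shared regions, 8 lay between -133.3 and -23.0 kb from the Tprg start, in intergenic sequence, and 1 lay inside Trp63. An overlapping peak in the other list was found for 9 of the 11 replicate 1 members and 8 of the 9 replicate 2 members. Over the whole lists, 64.9% of replicate 1 peaks and 90.6% of replicate 2 peaks had one. No peak of either list had its midpoint in the 136 kb body of Tprg. The stretch without a peak midpoint in either list ran 266 kb from the last region upstream of Tprg to the first one past its 3′ end.

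**Figure D1:**
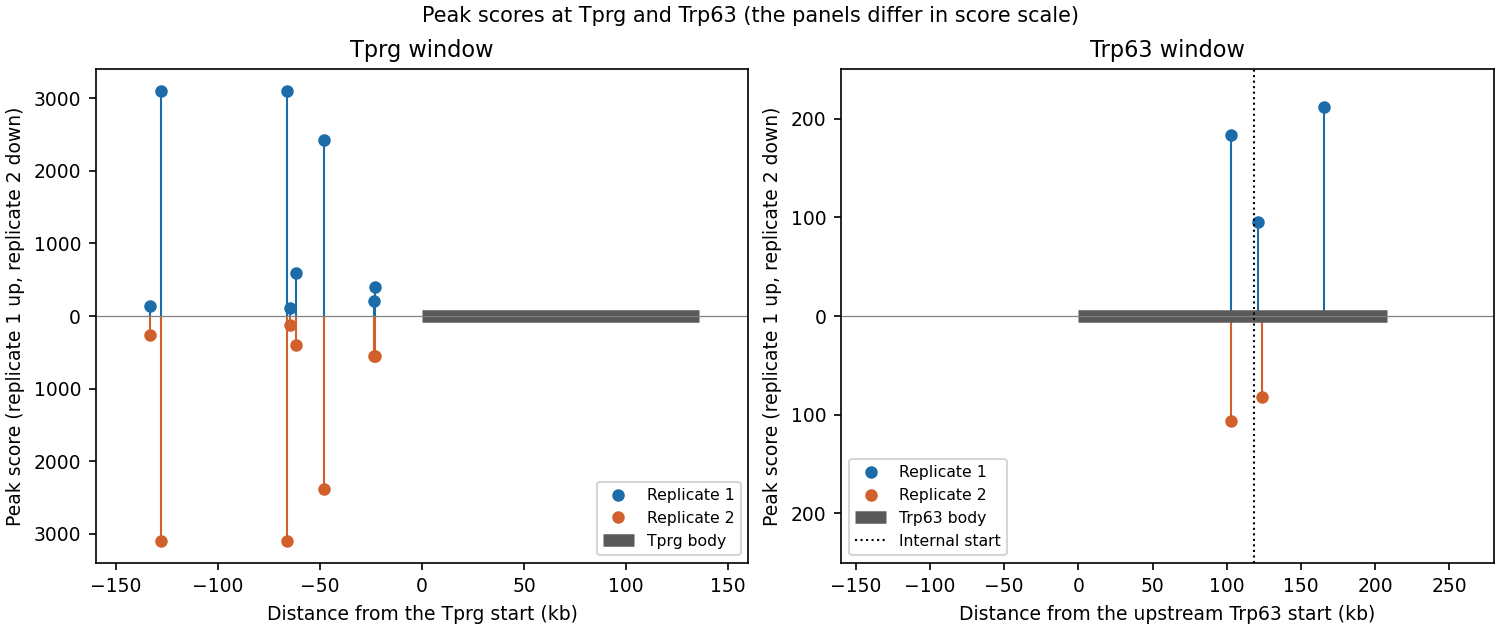
Peak score in replicate 1 (upward) and replicate 2 (downward) against distance in kb from the Tprg start (left) and from the upstream Trp63 start (right), with gene bodies as grey bars and the internal Trp63 start as a dotted line. Scores upstream of Tprg reached 3100 in both replicates, those in Trp63 stayed at or below 212, and the panels differ in score scale. The replicate 2 peak nearest to Tprg is drawn at the midpoints of both regions that share it.

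The regions at -128.2 and -66.0 kb from Tprg had the highest scores of the locus. The first, at 25158084 to 25159312, had a score of 3100 in replicate 1 and 3100 in replicate 2. The second, at 25220372 to 25221370, had the same scores. A score of exactly 3100 was shared by 17 peaks of replicate 1, which take ranks 3 to 19, and by 8 peaks of replicate 2, which take ranks 1 to 8, so these regions cannot be ordered between themselves. Of the 8 shared regions of the series at 3100 in both lists, 2 were upstream of Tprg, with midpoints 62.2 kb apart. Their peaks were also wide, at 1229 and 999 bp in replicate 1 and 1349 and 1428 bp in replicate 2, beside medians of 543 and 665 bp over the lists.

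The region at -48.1 kb, 25238245 to 25239330, came next, with scores of 2426 in replicate 1 (rank 55) and 2385 in replicate 2 (rank 23). These 3 regions were the only members within the top 1% of either list by rank. The other regions upstream of Tprg spread over the lists. The region at -61.9 kb (25224576 to 25225391) had scores of 591 (rank 1184) and 395 (rank 1316).

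A pair of regions lay closest to the Tprg start. The region at -23.7 kb (25262883 to 25263490) had a score of 207 in replicate 1 (rank 3771), and the region at -23.0 kb (25263553 to 25264201) had a score of 404 (rank 1856). In replicate 2 a single peak of 1813 bp with a score of 556 (rank 845) spanned both. Their midpoints were 691 bp apart, so they are separate in replicate 1 and joined in replicate 2.

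The lowest scores upstream of Tprg belonged to neighbours of the strongest regions. The region at -64.8 kb (25221841 to 25222367) had scores of 106 (rank 7312) and 129 (rank 4319), and its midpoint was 1233 bp from that of the region at -66.0 kb. The region at -133.3 kb (25153319 to 25153887) had scores of 142 (rank 5459) and 259 (rank 2100) and was 5095 bp from the region at -128.2 kb. Both were called as separate peaks in both lists. From the most distant region toward the gene, the midpoints were 5095, 62173, 1233, 2879, 13804, 24399 and 691 bp apart.

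Binding inside Trp63 was weaker. The single shared region, at 25786577 to 25787089, had scores of 184 in replicate 1 (rank 4269) and 106 in replicate 2 (rank 5192). It lay in intron 3 of the transcripts from the upstream start, 103.0 kb past that start and at -15.2 kb from the internal start that gives the ΔN forms. The replicate 1 score was above the median of its list, 162, and the replicate 2 score was below the median of its list, 161.

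The other members in Trp63 were called in 1 list each. A replicate 1 peak at 25804975 to 25805353, with a score of 95.7 (rank 8091), lay 3.16 kb past the internal start. A replicate 2 peak at 25807138 to 25807663, with a score of 81.8 (rank 6668), lay 5.40 kb past it. Their midpoints were 2236 bp apart and the peaks did not overlap, so they are not the same call. Both lay in intron 1 of the transcripts from the internal start. The lowest score that a peak could have was 80, at the p-value cutoff of 1e-08. Another peak, at 25849499 to 25850032, lay 47.8 kb past the internal start, in intron 2 of those transcripts, and had a score of 212 (rank 3689) in replicate 1 without a partner in replicate 2.

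Membership at the edges depended on the limit of 150 kb. The outermost member upstream of Tprg, at -133.3 kb, lay inside it. A replicate 1 peak at -157.6 kb, with a score of 96.7, was the first one outside. Upstream of Trp63, a group of 3 shared regions fell just past the limit, at -150.4, -151.9 and -153.8 kb from the upstream start, with replicate 1 scores of 282, 742 and 179 and replicate 2 scores of 151, 866 and 181. With a limit of 200 kb, chosen after the data were seen, the locus held 12 shared regions.

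The scores of the replicates were compared region by region, with no test. Of the 9 shared regions, 3 had the higher score in replicate 1, 4 in replicate 2, and 2 were tied at 3100. Over all shared regions, 80.2% had the higher score in replicate 1. The ratio of the replicate 1 to the replicate 2 score ranged from 0.37 to 1.73 in the locus, with a median of 1.00, beside a median of 1.31 over all shared regions. The median of the locus is the ratio of a region tied at 3100, and without the scores of 3100 it was 0.83. Of the 4 regions with the higher replicate 2 score, 2 share the wide peak nearest to Tprg, so they are not separate counts. The median of the lower score of each region was 395 in the locus and 168 in the series, a difference that the choice of the locus used.

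**Figure D2:**
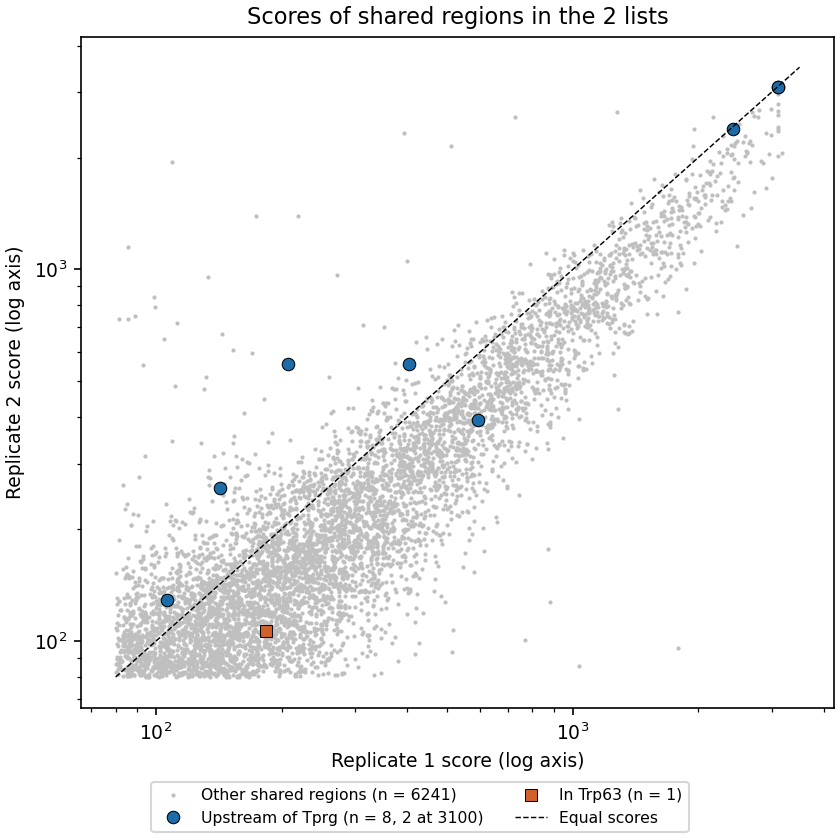
Replicate 2 score (vertical log axis) against replicate 1 score (horizontal log axis) for the 9 shared regions at Tprg and Trp63 (coloured) and the other shared regions (grey), with the line of equal scores dashed. The regions at 3100 overlie each other at the upper right, and 4 regions upstream of Tprg, with replicate 1 scores of 106 to 404, lie above the line, where the replicate 2 score is the higher one.

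EREs were searched on both strands in windows of 400 bp centred on each midpoint. With at most 1 mismatch, an ERE was found in 2 of the 9 windows of shared regions. Over the series 31.1% of such windows held one, and 1.11% of windows 5 kb to either side did. Both were upstream of Tprg. The region at -66.0 kb held GGTCATGGTGACC at 25220832 to 25220844, without a mismatch, centred at -33 bp from the midpoint. The region at -23.0 kb held GGTCACCTTGTCC at 25263768 to 25263780, with the substitution A11T, where the consensus base comes first and positions count from 1 at the 5′ end of the plus strand.

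The other strong regions were without such an ERE near their midpoints. In the region at -128.2 kb the best match within the window had 4 mismatches, which was so for 4.89% of all shared windows. The window covers a smaller part of this peak than of one of median width, and whole peaks were searched for the members of the locus only. When the whole peak was searched, GGTCACCATGAAC, with the substitution C12A, was found at 25158970 to 25158982, 278 bp downstream of the midpoint. In the region at -48.1 kb the best match, GGTCAGAACGATC at 25238606 to 25238618, had the substitutions T9C and C12T and was centred at -175 bp, and the whole peak held none with fewer mismatches. Among the 8 shared regions of the series at 3100 in both lists, the best match in the window had no mismatch in 2, 1 mismatch in 4 and 3 mismatches in 1, and the region at -128.2 kb had 4. Among the 1561 shared regions with a lower score of at least 329.87, 49.3% had an ERE of at most 1 mismatch, against 20.5% of the 1559 with one of at most 110.57.

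Weaker regions had matches of 1 to 4 mismatches. At -133.3 kb the best match was GATCAGATTGGCC (G2A and A11G), 18 bp from the midpoint. At -23.7 kb it was GGTCATTAAGACT (T9A and C13T). The region at -64.8 kb had 3 mismatches at best and the region at -61.9 kb had 4. In Trp63 the shared region had 3 mismatches at best, and the replicate 1 peak 47.8 kb past the internal start held GGTGACTGTGACC at 25849671 to 25849683, with the single substitution C4G, the only member in Trp63 with at most 1 mismatch. The peaks just past the internal start had 4 and 3 mismatches at best. A single arm, GGTCA on either strand, was searched after the data were seen. It was present in 8 of the 9 shared windows, in 88.9% of all shared windows and in 50.6% of windows 5 kb to either side. The window at -66.0 kb held 5 arms, of which 2 make up its ERE.

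**Figure D3:**
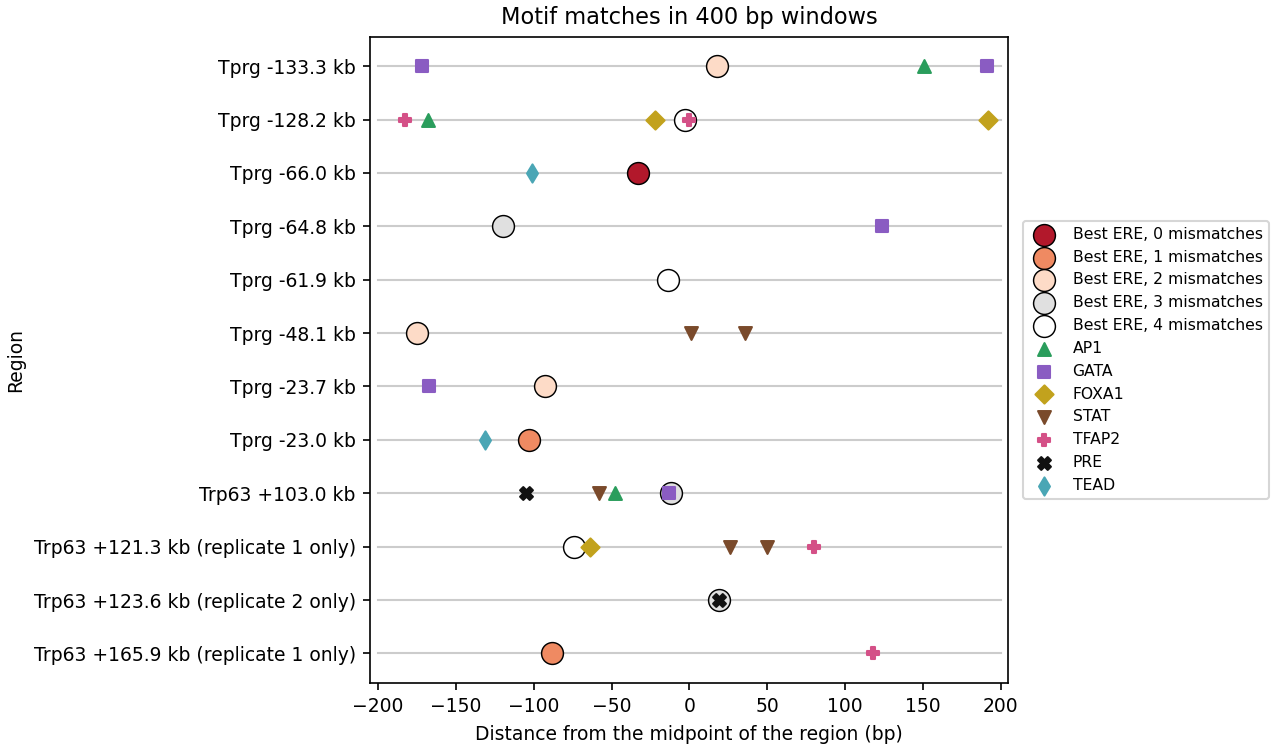
Position in bp from the midpoint of the best ERE (circles, coloured by mismatches) and of other motif matches (symbols) in the 400 bp windows of the 12 members. The ERE without mismatch at -66.0 kb lies at -33 bp, and the windows at -128.2 and -61.9 kb and 121.3 kb past the upstream Trp63 start have 4 mismatches at best.

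Other motifs were few and differed from region to region. The AP1 motif, TGAGTCA or TGACTCA, the binding sequence of Fos and Jun dimers, was present in 3 of the 9 shared windows, at -133.3 kb, at -128.2 kb and in Trp63, against 16.7% of all shared windows. None of these 3 had an ERE of at most 1 mismatch in the window. The AP1 match was 151 bp downstream of the midpoint at -133.3 kb, at -168 bp at -128.2 kb and at -48 bp in Trp63. The FOXA1 motif, TGTTTAC or TATTTAC, was found in 1 of the 9, at -128.2 kb, with 2 matches, at -22 and 192 bp from the midpoint, against 14.0% of all shared windows and 10.7% of the flanking windows.

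Motifs of other mammary factors were also searched. A GATA motif, AGATAA or TGATAA, was present in 4 of the 9 shared windows (-133.3, -64.8 and -23.7 kb and Trp63), against 32.7% of all shared windows and 34.1% of the flanking ones. The STAT motif, TTCNNNGAA, was found in 2 (the -48.1 kb region, with 2 matches, and Trp63), against 14.4% and 12.2%. The TEAD motif, GGAATG, was found in 2, the windows at -66.0 and -23.0 kb that also held the EREs, against 25.5% and 20.4%. The TFAP2 motif, GCCNNNGGC, was found in 1, at -128.2 kb, against 15.4% and 8.44%.

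The element of the progesterone and glucocorticoid receptors, an inverted repeat of GNACA and TGTNC with 3 bases between them, was found in the shared region of Trp63 and in no other shared window of the locus, against 2.63% of all shared windows. The replicate 2 peak 5.40 kb past the internal start of Trp63 also held one, at the place of its best ERE match. No shared window of the locus held the SF1 motif CAAGGTCA (9.35% of all shared windows), the PAX2 motif GTCACG (9.16%), the RUNX motif TGTGGTT or TGCGGTT (10.6%) or the NFI motif, TTGGC and GCCAA with 5 bases between them and at most 1 mismatch (2.69%). These letters not being in the windows says nothing of the factors. The GC content of the shared windows ranged from 37.8% to 56.0% with a median of 43.2%, beside 48.0% over all shared windows (quartiles 44.0% and 52.2%), and the highest was at -66.0 kb.

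Tprg had 8 shared regions in a window of 300 kb, 26.7 per Mb, and Trp63 had 1 in 418 kb, 2.39 per Mb. The pair of regions nearest to Tprg shares a replicate 2 peak, so the 8 hold 7 different replicate 2 peaks. Chromosome 16 held 2.56 per Mb and chromosomes 1 to 19 and X held 2.37 per Mb. By this rule the Trp63 window was close to the density of the chromosome and the Tprg window was above it. The Trp63 value rests on 1 region and depends on the limit of 150 kb. It leaves out the group of shared regions that fell just past that limit upstream of Trp63. Of 22350 protein-coding genes, 48.5% had at least 1 shared region by this rule and 1.06% had at least 8, values that are given for scale because Tprg was chosen for its binding.

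Greb1 and Pgr, which encode a growth regulator induced by estrogen in breast cancer and the progesterone receptor, were set beside Tprg. Greb1 had 9 shared regions, 21.1 per Mb, and Pgr had 11, 36.5 per Mb. As in the Tprg window, with 7, the replicate 2 peaks were fewer than the shared regions, 8 for Greb1 and 10 for Pgr. The highest scores of Greb1 and Pgr were 1842 and 2350 in replicate 1 and 1106 and 2148 in replicate 2. The 3100 of Tprg was above these in both lists, a difference that the choice of the locus used. An ERE with at most 1 mismatch was present in the windows of 3 of the 9 regions of Greb1 and 6 of the 11 of Pgr, and in 2 of the 8 of Tprg.

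**Figure D4:**
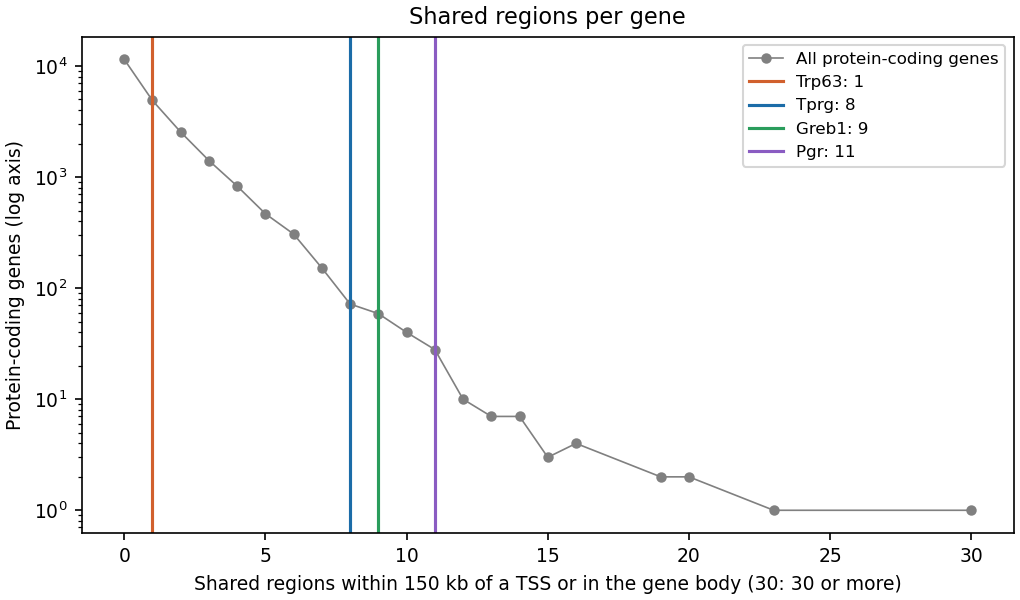
Number of protein-coding genes (log axis) with each number of shared regions within 150 kb of a TSS or in the gene body, with Trp63 (1), Tprg (8), Greb1 (9) and Pgr (11) as vertical lines. The last point, drawn at 30, is the 1 gene with 60 shared regions, the highest count.

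The relatives of these genes were counted by the same rule, under which 48.5% of protein-coding genes had at least 1 shared region and the upper quartile was 2. Among the p53 family, Trp53, the tumor suppressor, had 0 shared regions by the rule, Trp73 had 2 and Trp63 had 1. Tprgl, the paralog of Tprg, had 2. The strongest region of Trp73 and that of Tprgl were the same one, with scores of 338 and 162.

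Of 20 genes that mark basal and myoepithelial cells or act in them, 13 (65.0%) had at least 1 shared region, with a median of 1.00 a gene, beside the 48.5% over all protein-coding genes. Krt14 and Krt17, keratins of basal cells, had 6 each, and the strongest region of Krt17 had scores of 1021 and 814. These genes lie near each other on chromosome 11 and most of their regions are the same ones, so they are not separate counts. Neighbouring regions counted for both genes also share a replicate 1 peak with a score of 884. Oxtr, the oxytocin receptor of the contractile myoepithelium, had 3, with scores of up to 1275 and 867. Egfr had 6, Acta2 and Itgb4 had 2 each, and Myh11, Cnn1, Mylk, Itga6 and Snai2 had 1 each. Their strongest regions had scores of 812 and 764 for Itgb4, 583 and 430 for Egfr and 465 and 281 for Snai2. Those of Acta2, Mylk and Itga6 had 414 and 179, 362 and 234, and 282 and 188. Those of Cnn1 and Myh11 had 232 and 95.2, and 113 and 86.5. Cdkn1a, the cell cycle inhibitor p21, had 7, and Fgfr2, a receptor for fibroblast growth factors, had 16 over an annotated body of 3009069 bp. Krt5, Itgb1, Perp, Jag2, Vim, Lgr5 and Procr had 0. The number of regions by this rule grows with the length of a gene and with the regions of its neighbours, so these counts place the genes and do not assign targets.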

How the data were processed

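ERα ChIP-seq peak lists of 2 replicates were used, and the input library entered only through peak calling. The authors aligned the reads to mm9 (BWA). Each replicate then had its own MACS peak list, with the input as control and a p-value cutoff of 1e-08. The MACS version was not given in the sources used here. The deposited score of each peak is the negative log10 of its p-value multiplied by 10, and all are above 80. The lists hold no reads, so depth is unknown from them. The labels name the replicates as separate samples of 1 group.

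All peaks of the assembled chromosomes fitted the lengths of NCBIM37. TSSs and gene bodies were those of the GENCODE annotation of that assembly, and gene names were taken from it. Motifs were searched in 400 bp windows, and in 12034 windows without a peak, 5 kb away on either side. Overlap, membership and motif searches were checked on simulated data. No test was run, since the members and gene lists were chosen with earlier results of these data known. By rule, the genes named are both members, Greb1 and Pgr for comparison, the genes of the lists and those whose TSS is nearest to a member region of the locus. Python 3.11.15, numpy 2.4.6, pandas 2.3.3, pysam 0.24.0 and matplotlib 3.10.9 were used.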

Additional observations from a re-analysis of the deposited data

How the results depend on the processing

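The number of shared regions at the locus was 9. It was 6 with scores of at least 200 and 7 within 100 kb of a TSS, with a reciprocal overlap of 50% or with midpoints within 100 bp, and it was 9 to 11 when a replicate was left out and all peaks of the other were counted. Within gene bodies only, it fell to 1, and the members of replicate 1 and replicate 2 fell to 3 and 2, since every region near Tprg is upstream of the gene. At scores of at least 200, replicate 1 had 7 members. The ERE count also moved. From 2 of 9 shared windows it went to 1 in 200 bp windows, to 4 over the whole interval of either peak, to 1 without mismatches and to 5 with at most 2, and leaving out a replicate gave 1 (without replicate 1) to 3 (without replicate 2). In the whole-interval count, both regions nearest to Tprg are credited with the same ERE. A wider window, added after the data were seen, gave 3. The density of 12.5 shared regions per Mb ranged from 8.35 to 15.3, and the median score ratio was 0.83 without the scores of 3100. The spread between animals cannot be estimated from 2 pools. No paired analysis was possible because the ChIP replicates form 1 group and no group was tested against it.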

Other observations

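Shared regions were also called outside the limits, on both sides of the Tprg window. Farther upstream of Tprg, 5 shared regions lay between -352.9 and -214.1 kb from its start. The strongest, at -325.2 kb, 24961303 to 24962060, had scores of 1659 (rank 188) and 1396 (rank 146) and an ERE with 1 mismatch at -37 bp from its midpoint. Another, at 25058970 to 25059881, had its midpoint at -300 bp from the TSS of A230028O05Rik, a long noncoding RNA gene, with scores of 356 and 198, and the 2 regions that followed it lay 7375 and 13123 bp past that TSS. That TSS was also the nearest of any gene to the member regions at -133.3 and -128.2 kb, which were 93878 and 98973 bp past it, whereas a Tprg TSS was the nearest one to the other 6 regions upstream of Tprg.

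Past the 3′ end of Tprg, the group of 3 shared regions that missed the limit of 150 kb lay 107.6 to 111.0 kb beyond the gene. The middle one, with scores of 742 (rank 859) and 866 (rank 413), held an ERE with 1 mismatch at -24 bp from its midpoint. A Trp63 TSS was the nearest to all 3, from which they were at -150.4, -151.9 and -153.8 kb.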
